A study of Mus musculus with 8 samples.

Results

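The genes described here encode collagens, other proteins of the extracellular matrix and the enzymes and chaperones that mature them, a set of 39 genes usually assigned to stromal cells such as fibroblasts. The rule that lists them uses no measured value, though the list was drawn up with earlier results of these data known, and each gene was represented by the probe set of highest mean over 8 arrays among those with a single gene symbol in the platform annotation. Of the 39, 37 had such a probe set, out of 18193 genes in all, and Fbn1 and Loxl2 were not analysed here. A gene was tested when its second-highest array reached 3.16 on the log2 scale, the median of all values, and 29 of the 37 passed. The 8 measured but not tested were Lamb1, Nid2, Col14a1, Col16a1, Fbln2, Mfap5, Postn and Tnc.

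Fibrillar collagens are secreted as procollagen trimers, trimmed outside the cell and cross-linked by lysyl oxidases, while type IV collagen, laminins and nidogens build the sheet-like basement membrane. Fibroblasts, smooth muscle cells and mesothelial cells make most of this matrix, whereas macrophages are better known for taking it up and for making a few of its components, such as versican and thrombospondin-1. The product of Zc3h12a, Regnase-1, is a ribonuclease known for cutting mRNAs of cytokines.

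RNA came from peritoneal macrophages of wild-type mice and of mice labelled Zc3h12a-/-, harvested after an injection of thioglycollate, which provokes a sterile inflammation that recruits such cells. Both genotypes were treated with LPS at 100 ng/ml, a bacterial cell wall component sensed by TLR4, for 0, 1, 2 or 4 h, and 1 Affymetrix array was made for each genotype and time. Strain background, age, sex, the number of animals pooled and the day of preparation are not given in the sources used here. With 1 array for each combination, p-values measure the spread that remains between arrays after genotype and time are fitted, and effects of the cell preparation cannot be told apart from those of the genotype.

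Array medians lay between 3.14 and 3.21 in deposited log2 values. Background on each array was taken as the highest of 27 bacterial control probe sets and lay between 2.96 and 3.26. Of the 37 matrix genes, 20 were above it on all 8 arrays and only Col16a1 was above it on none. The probe set of Zc3h12a with signal at 0, 1, 2 and 4 h stood at 6.12, 8.02, 8.87 and 8.57 in wild type, against 6.73, 7.70, 8.75 and 8.50 in the labelled knockout. These values do not show a loss of the transcript. The position of the probes relative to the deletion could not be checked, so every genotype direction rests on the sample labels. All 10 general macrophage markers were above background on all 8 arrays.

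Collagen and matrix RNA was mostly lower in the labelled-knockout arrays. In limma's comparison of genotypes with time as a block, 16 of the 29 tested genes were lower and 3 were higher at a Benjamini-Hochberg adjusted p under 0.05, where 8.72% of all 12540 tested genes were lower and 4.75% were higher. With cyclic loess between arrays, and with arrays centred on housekeeping genes, 16 were again lower and 3 higher, while the share of genotype calls over all genes that were higher went from 35.3% to 46.7% and 71.5%. Without the filter, 16 of the 37 were lower and 3 higher, against 5.96% and 3.24% of all 18193 genes. The median genotype difference of the 37 was -0.33 on the log2 scale, against -0.02 for all genes. In 18 of the 37 the highest labelled-knockout array lay below the lowest wild-type array, which held for 3.32% of all genes, and in Postn alone the order was the opposite (2.90% of all genes). Counting each time separately, 21 of the 37 were lower in the labelled knockout at all 4 times, against 19.1% of all genes. In bulk RNA, fewer cells of a type and less RNA per cell cannot be told apart.

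**Figure D1:**
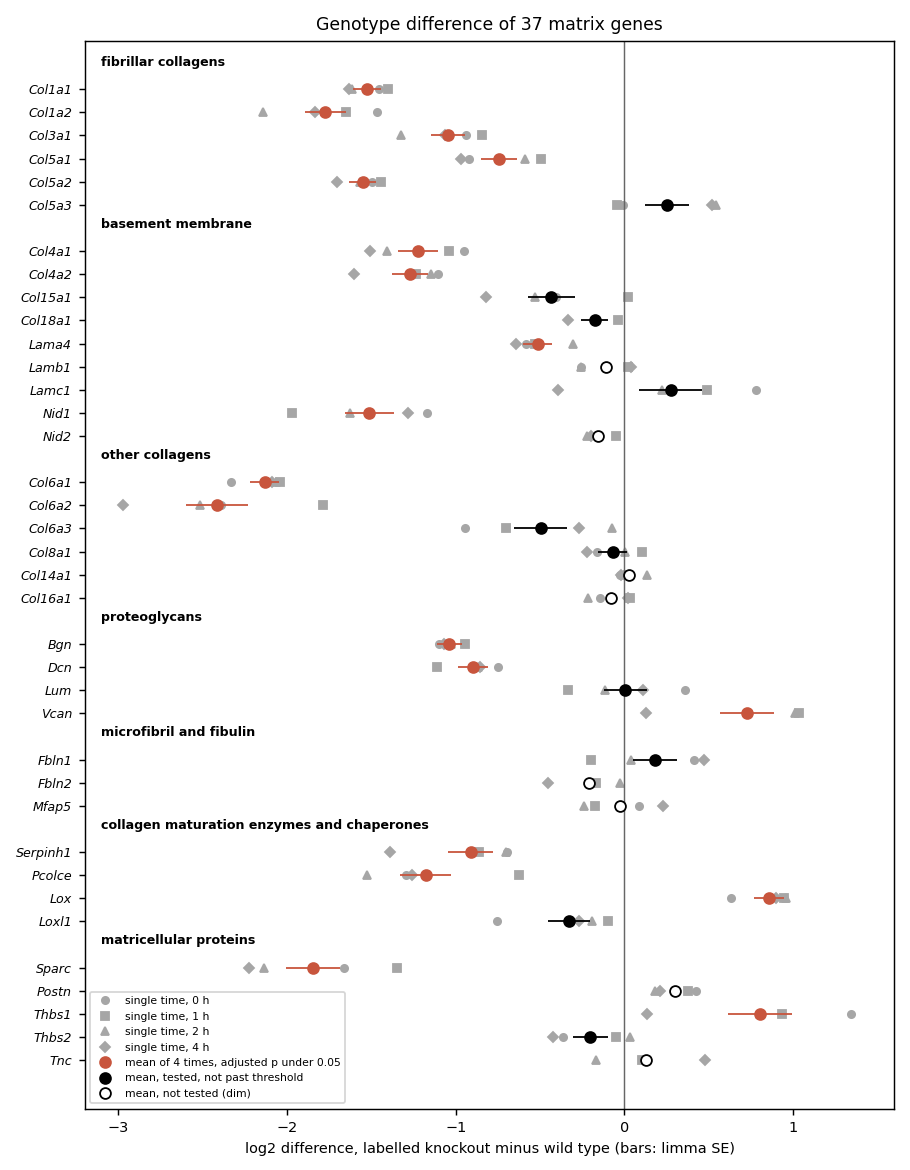
Difference between labelled knockout and wild type (horizontal axis, log2) for each of the 37 measured genes, grouped by role. Large points are means over 4 times with limma's SE, red where the adjusted p was under 0.05 and open where the gene was not tested; grey points are single times. Of the red points 16 lie left of 0 and 3 (Vcan, Lox and Thbs1) right of it, and the lowest is Col6a2 at -2.42.

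Shown here are the promoters of 4 genes of the set: Col1a2 (a fibrillar chain gene), Col6a1 (lowest adjusted p by genotype), Sparc (matricellular) and, of opposite direction, Vcan. Each is the 250 bases before the annotated start, from RefSeq on GRCm38.p6, written in the direction of transcription. Capitals mark CCAAT (or ATTGG on the other strand), TGANTCA (the AP-1 site, its own reverse complement) and CAGAC (or GTCTG, the core bound by SMAD proteins). Col1a2 lies on the plus strand at chr6:4505368-4505617, and the others lie on the minus strand, Col6a1 at chr10:76726045-76726294, Sparc at chr11:55420081-55420330 and Vcan at chr13:89742513-89742762.
Col1a2: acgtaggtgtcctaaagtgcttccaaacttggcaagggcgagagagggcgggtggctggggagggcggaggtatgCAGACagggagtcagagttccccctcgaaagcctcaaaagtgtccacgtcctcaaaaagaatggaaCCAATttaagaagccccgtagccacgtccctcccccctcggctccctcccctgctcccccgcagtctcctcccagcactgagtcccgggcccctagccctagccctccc
Col6a1: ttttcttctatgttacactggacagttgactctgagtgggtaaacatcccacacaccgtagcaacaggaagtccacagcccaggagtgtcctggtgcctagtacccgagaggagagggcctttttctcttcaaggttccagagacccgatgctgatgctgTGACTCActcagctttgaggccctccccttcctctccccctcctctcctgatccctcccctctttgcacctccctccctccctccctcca
Sparc: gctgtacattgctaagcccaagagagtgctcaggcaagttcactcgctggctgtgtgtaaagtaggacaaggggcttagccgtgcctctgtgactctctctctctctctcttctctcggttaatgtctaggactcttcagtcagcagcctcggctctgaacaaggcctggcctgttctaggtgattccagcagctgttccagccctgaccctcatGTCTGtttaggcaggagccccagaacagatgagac
Vcan: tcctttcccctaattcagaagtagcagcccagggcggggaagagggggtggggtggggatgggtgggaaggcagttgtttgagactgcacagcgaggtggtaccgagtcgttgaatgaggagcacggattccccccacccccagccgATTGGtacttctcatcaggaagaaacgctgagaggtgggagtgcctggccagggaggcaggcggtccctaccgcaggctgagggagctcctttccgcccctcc
The Col1a2 window holds CCAAT 109 bases before the start and CAGAC 175 bases before it. The Col6a1 window holds TGANTCA 90 bases before the start, Sparc holds GTCTG 35 bases before it and Vcan holds ATTGG 103 bases before it.

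RefSeq promoters were used for 25 of the 37 genes, among them 12 of the 16 that were lower, which have 13 promoters. Any promoters of the set on 1 chromosome were left out, while the shares over all promoters include that chromosome. Of these 13, 4 held CCAAT (Col1a2, Col4a1, Col4a2 and Nid1), against 33.8% of all 32851 promoters. CAGAC was found in 7 of the 13, against 42.2% of all promoters, and TGANTCA in 1, against 6.75%. TATAAA or its reverse complement was in 1, that of Col3a1, against 12.4%. A strict form of the NF-kappaB site was in 0 of the 13, against 1.41%. These matches describe letters in a window and do not show binding.

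Among the fibrillar collagens, 5 of 6 genes were lower in the labelled knockout and the group's median difference was -1.29. Col1a1, which encodes the more abundant chain of type I collagen (probe set 1455494_at), read 9.79, 10.04, 9.70 and 10.09 in wild type, against 8.34, 8.63, 8.09 and 8.45 in the labelled knockout. These and all following sets of 4 values are log2 values of single arrays at 0, 1, 2 and 4 h of LPS, in that order. All 4 wild-type arrays lay above all 4 labelled-knockout arrays. The difference was -1.53 (SE 0.08, limma adjusted p = 0.00026), a fold of 2.88.

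Col1a2, the partner chain (1450857_a_at), read 8.11, 8.68, 8.22 and 8.73 in wild type, against 6.64, 7.03, 6.08 and 6.90 in the labelled knockout. The genotypes again did not overlap, and the labelled-knockout array at 2 h was the lowest of the 8. The difference was -1.77 (SE 0.12, limma adjusted p = 0.000799), a fold of 3.42. A second Col1a1 probe set, 1423669_at, was also lower at all 4 times.

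Col3a1, which forms type III collagen and co-assembles with type I in fibrils (1427883_a_at), read 5.95, 6.47, 5.87 and 6.27 in wild type, against 5.01, 5.63, 4.55 and 5.21 in the labelled knockout. Every wild-type array was above every labelled-knockout array. The difference was -1.04 (SE 0.10, limma adjusted p = 0.00252). Its other probe set, 1427884_at, was also lower at all 4 times and gave a difference of -0.64 (limma adjusted p = 0.0331 where probe sets of the less specific kinds, such as the first, were left out).

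Type V collagen nucleates and limits the width of type I fibrils, and its main chains are the products of Col5a1 and Col5a2. Col5a2 (1422437_at) read 6.20, 6.58, 6.29 and 6.88 in wild type, against 4.70, 5.14, 4.73 and 5.18 in the labelled knockout, a difference of -1.55 (SE 0.08, limma adjusted p = 0.000235). Its genotypes were separated at every time, with the 4 h array the highest in each. Col5a1 (1434479_at) read 4.23, 3.97, 3.94 and 4.75 in wild type, against 3.30, 3.47, 3.35 and 3.78 in the labelled knockout, a difference of -0.74 (SE 0.11, limma adjusted p = 0.00987). This call was lost without either 0 h array (adjusted p = 0.054). With time as a block, leaving out an array takes its whole time out of the genotype comparison. Leaving out either array of a time therefore gives the same genotype result, here and below.

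Col5a3, the rarer type V chain, did not pass. It lay between 2.94 and 3.14 in wild type and between 2.93 and 3.66 in the labelled knockout, with the high values there at 2 and 4 h, and was above background on 1 and 2 arrays respectively. Its difference was 0.25 (SE 0.13, limma adjusted p = 0.246).

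**Figure D2:**
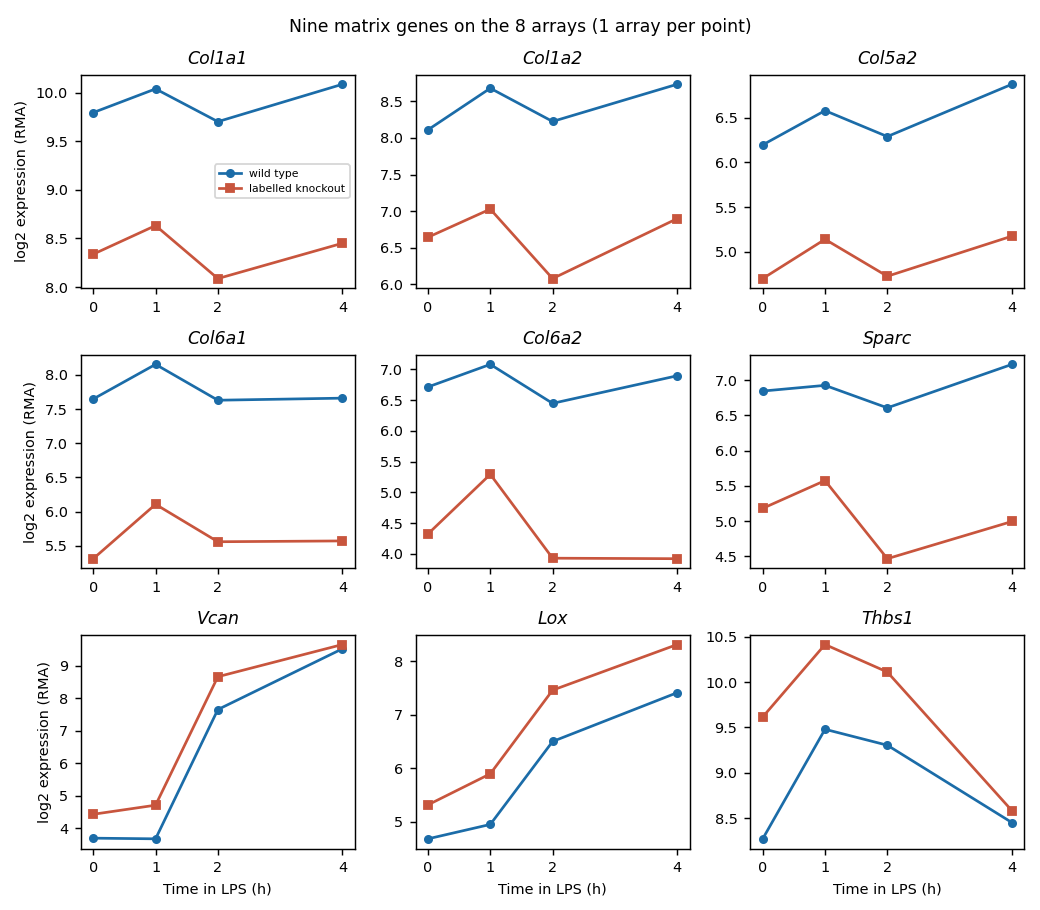
Log2 expression (vertical axis, its range differing between panels) of 9 matrix genes against hours of LPS (horizontal axis), 1 array per point, wild type in blue and labelled knockout in red. In the upper 6 panels all wild-type points lie above all labelled-knockout points, as for Col1a1 with 9.70 to 10.09 against 8.09 to 8.63, and in those of Vcan, Lox and Thbs1 the labelled knockout is the higher at each time.

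Of the 9 basement membrane genes measured, 4 were lower in the labelled knockout, 0 were higher, and 2 (Lamb1 and Nid2) were not tested. Col4a1 and Col4a2 encode the 2 chains of the common type IV collagen trimer, and their annotated starts lie 21 bases apart on opposite strands of chromosome 8. Col4a1 (1452035_at) read 4.92, 5.22, 5.48 and 6.18 in wild type, against 3.98, 4.18, 4.07 and 4.68 in the labelled knockout, a difference of -1.23 (SE 0.12, limma adjusted p = 0.00246). Col4a2 (1424051_at) read 4.33, 4.58, 4.66 and 5.19 in wild type, against 3.22, 3.34, 3.52 and 3.59 in the labelled knockout, a difference of -1.27 (SE 0.11, limma adjusted p = 0.00151). For both chains the wild-type value was higher at each later time, and all wild-type arrays lay above all labelled-knockout arrays.

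Nid1, which links laminin to type IV collagen (1416808_at), read 5.16, 5.82, 5.31 and 5.61 in wild type, against 3.99, 3.84, 3.69 and 4.32 in the labelled knockout. The groups did not overlap and the widest gap between genotypes was at 1 h. The difference was -1.51 (SE 0.14, limma adjusted p = 0.00238), a fold of 2.85.

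Lama4, a laminin chain of vessel and muscle basement membranes (1424807_at), read 3.48, 3.45, 3.08 and 3.50 in wild type, against 2.90, 2.92, 2.78 and 2.86 in the labelled knockout, where no array was above background. It was at least 1.20-fold lower there, taking each dim array at no less than its background (measured difference -0.51, SE 0.09, limma adjusted p = 0.0162). Leaving out any of the arrays at 0 or 4 h ended the call (adjusted p up to 0.0759).

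The other basement membrane genes did not pass. Lamc1, the laminin gamma chain shared by most laminins, read 6.09, 6.11, 6.24 and 6.33 in wild type, against 6.87, 6.60, 6.46 and 5.94 in the labelled knockout, so that the labelled knockout was the higher at 0, 1 and 2 h and the lower at 4 h. Col15a1 and Col18a1, whose products are collagens with heparan or chondroitin sulfate chains, differed by -0.43 (SE 0.14, limma adjusted p = 0.0938) and -0.18 (SE 0.08, adjusted p = 0.199). Col15a1 was above background on 4 wild-type and 2 labelled-knockout arrays. Lamb1 ranged from 2.78 to 3.23 and Nid2, the second nidogen, from 2.82 to 3.15 over the 8 arrays.

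Type VI collagen forms beaded filaments around cells, and 2 of its chains showed the greatest genotype differences of the set. Col6a1 (1448590_at) read 7.65, 8.15, 7.63 and 7.66 in wild type, against 5.31, 6.11, 5.56 and 5.57 in the labelled knockout. Col6a2 (1452250_a_at) read 6.71, 7.08, 6.45 and 6.90 in wild type, against 4.32, 5.29, 3.93 and 3.92 in the labelled knockout. In both genes the 1 h array was the highest of each genotype and the genotypes stood far apart.

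Col6a1 differed by -2.13 (SE 0.08, limma adjusted p = 9.95e-05), a fold of 4.39, and Col6a2 by -2.42 (SE 0.18, adjusted p = 0.00113), a fold of 5.34. The other Col6a2 probe set, 1426947_x_at, was also lower at all 4 times and gave a difference of -1.05. Both Col6a2 probe sets are of the less specific kinds, so the gene went untested where those were left out. Col6a3, the longest of the common chains, read 3.96, 3.94, 3.33 and 3.41 in wild type, against 3.02, 3.24, 3.25 and 3.14 in the labelled knockout. Its genotypes did not overlap, but the difference of -0.50 (SE 0.15, limma adjusted p = 0.085) missed the threshold. Of the remaining collagens, Col8a1, a network-forming collagen of vessel walls, differed by -0.07 (SE 0.09, limma adjusted p = 0.62). Col14a1, a fibril-associated collagen, ranged from 3.03 to 3.18 and Col16a1, another of that class, from 2.68 to 2.98.

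Of the 4 proteoglycans 2 were lower and 1 was higher in the labelled knockout. Biglycan (Bgn, 1416405_at), a small leucine-rich proteoglycan that binds collagen, read 6.07, 6.40, 6.06 and 6.45 in wild type, against 4.97, 5.45, 5.03 and 5.38 in the labelled knockout, a difference of -1.04 (SE 0.07, limma adjusted p = 0.000925). Decorin (Dcn, 1449368_at), a close relative that coats collagen fibrils, read 4.89, 5.30, 5.05 and 5.66 in wild type, against 4.14, 4.19, 4.19 and 4.81 in the labelled knockout, a difference of -0.90 (SE 0.09, adjusted p = 0.00262). In neither gene did any labelled-knockout array reach the lowest wild-type array. Lumican (Lum), of the same family, was above background on 2 wild-type arrays and on no labelled-knockout array, with values from 2.59 to 3.31 (difference 0.01, SE 0.13, limma adjusted p = 0.984).

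Versican (Vcan, 1427256_at), the large chondroitin sulfate proteoglycan, read 3.69, 3.67, 7.65 and 9.52 in wild type, against 4.42, 4.70, 8.66 and 9.65 in the labelled knockout. The labelled knockout was the higher at each time, least so at 4 h. The difference was 0.73 (SE 0.16, limma adjusted p = 0.035). This call was lost without the time 0, 1 or 2 h, by leaving out either of its arrays (adjusted p up to 0.124). It was also lost with the mean of all probe sets of the gene.

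None of the fibulin and microfibril genes passed in the genotype comparison, with 1 of 3 tested by limma. Fbln1, which binds elastic fibers and basement membranes, lay between 3.64 and 4.17 in wild type and between 3.97 and 4.34 in the labelled knockout (difference 0.18, SE 0.13, limma adjusted p = 0.38). Fbln2 ranged from 2.70 to 3.21 and the microfibril gene Mfap5 from 2.92 to 3.29 over all arrays.

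Among genes that mature collagen, Serpinh1, the collagen chaperone HSP47 (1456733_x_at, a kind of probe set that can also match other transcripts), read 3.95, 4.18, 3.86 and 4.52 in wild type, against 3.26, 3.32, 3.16 and 3.12 in the labelled knockout. Pcolce, which speeds removal of the procollagen C-propeptide (1437165_a_at), read 4.80, 4.41, 4.13 and 4.29 in wild type, against 3.50, 3.79, 2.61 and 3.03 in the labelled knockout. Both were above background on 4 wild-type arrays and 2 labelled-knockout arrays, and neither gene's groups overlapped. Serpinh1 differed by -0.91 (SE 0.13, limma adjusted p = 0.0101) and Pcolce by -1.18 (SE 0.15, adjusted p = 0.00665). With dim labelled-knockout arrays raised to their background, the differences were -0.89 and -0.99.

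Lysyl oxidase (Lox, 1416121_at), which oxidises collagen and elastin lysines for cross-linking, went the other way. It read 4.69, 4.95, 6.50 and 7.41 in wild type, against 5.32, 5.90, 7.46 and 8.31 in the labelled knockout. The labelled knockout was the higher at each of the 4 times, by 0.63 to 0.96. The difference was 0.86 (SE 0.09, limma adjusted p = 0.00309), a fold of 1.81. Loxl1, a lysyl oxidase of elastic fibers, was above background on 2 wild-type arrays and no labelled-knockout array, and its difference of -0.33 (SE 0.12, limma adjusted p = 0.132) did not pass.

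Matricellular proteins sit in the matrix and act on cells without building fibers. Sparc, also called osteonectin (1448392_at), read 6.84, 6.92, 6.61 and 7.22 in wild type, against 5.18, 5.57, 4.47 and 4.99 in the labelled knockout, with no overlap. It differed by -1.85 (SE 0.16, limma adjusted p = 0.00169), a fold of 3.59. Thbs1, thrombospondin-1 (1460302_at), read 8.27, 9.48, 9.30 and 8.45 in wild type, against 9.62, 10.41, 10.11 and 8.58 in the labelled knockout, so that the groups overlapped although the labelled knockout was the higher at each time.

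The Thbs1 difference was 0.80 (SE 0.19, limma adjusted p = 0.0403). This call was lost without the time 0, 1 or 2 h, by leaving out either of its arrays (adjusted p up to 0.125). It was also lost with the mean of the gene's probe sets. Thbs2, the second thrombospondin, differed by -0.20 (SE 0.11, limma adjusted p = 0.243). Postn (periostin) lay between 2.62 and 2.91 in wild type, all at background, and between 2.94 and 3.17 in the labelled knockout, above background on 1 array. Tnc (tenascin-C) ranged from 2.89 to 3.52.

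At single times, which rest on 1 array of each genotype and have no test, the numbers of the 37 genes at least 2-fold lower in the labelled knockout were 10, 10, 12 and 13 at 0, 1, 2 and 4 h. The same fold was seen in 1.70%, 1.35%, 2.84% and 2.20% of the 12540 tested genes. The median difference of the 16 lower genes was -1.14, -1.17, -1.47 and -1.45 at the 4 times. These 16 genes had 19 further probe sets, of which 9 were above background on all 8 arrays. Of the 9, 7 were lower at all 4 times, and the exceptions, for Col5a2 and Sparc, were lower at 3 of 4. When every probe set was averaged, dim ones included, most differences were smaller. Those of Col1a2, Col3a1 and Col5a1 became -1.22, -0.84 and -0.45. Col5a2, Col4a1 and Nid1 gave -0.89, -0.73 and -0.47. For Col6a2, Dcn and Sparc the values were -1.73, -0.51 and -1.13. Serpinh1 gave -0.64, Pcolce -0.84, Bgn -1.03 and Lox 0.47. All of these were past the threshold, as was Col1a1, whose difference was larger at -1.69. Vcan, at 0.18, was not, and neither was Thbs1, at 0.58.

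Some genes of the set rose after LPS. In limma's comparison with 0 h, genotype as a block, 8 of the 29 tested genes rose at 4 h and 0 fell. Over all tested genes 14.4% rose and 29.4% fell. At 1 h, 1 gene rose and 0 fell (background 3.85% and 6.62%), and at 2 h, 3 rose and 1 fell (12.0% and 29.8%). These counts depend on the scaling. With arrays centred on housekeeping genes the counts at 1, 2 and 4 h were 6, 16 and 24 higher and 0 lower, where 752, 4718 and 8058 of all 12540 tested genes were higher. With that centring the median difference of all tested genes at 4 h moved from -0.12 to 0.62. The share of LPS calls over all genes that were higher at 4 h went from 32.9% to 86.6%, and with cyclic loess it was 41.9%.

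Vcan rose by 4.09 (SE 0.23, limma adjusted p = 9.4e-05) at 2 h and by 5.52 (SE 0.23, adjusted p = 1.79e-05) at 4 h. In both genotypes its value at 1 h was within 0.28 of that at 0 h, and the large step came between 1 and 2 h. Lox rose by 1.98 (SE 0.12, limma adjusted p = 0.000132) at 2 h and by 2.86 (SE 0.12, adjusted p = 2.09e-05) at 4 h. Vcan and Lox were also the only genes of the set that rose at 4 h by an estimated 2-fold or more with a passing p. With the mean of all their probe sets, the 4 h differences were 1.82 for Vcan and 1.41 for Lox, and those at 2 h were 1.29 and 1.03, all past the threshold.

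The other 6 genes that rose at 4 h are all among the 16 that were lower in the labelled knockout. Col4a1 rose by 0.98 (SE 0.17, limma adjusted p = 0.0039), Col4a2 by 0.62 (SE 0.15, adjusted p = 0.0161) and Dcn by 0.72 (SE 0.12, adjusted p = 0.00416). Col5a2 rose by 0.58 (SE 0.11, limma adjusted p = 0.00726), Col5a1 by 0.50 (SE 0.15, adjusted p = 0.04) and Bgn by 0.40 (SE 0.11, adjusted p = 0.023). Centred on housekeeping genes, these 6 differences were 1.14 to 1.72. With the mean of all probe sets Col4a1 differed by 0.48, Dcn by 0.42 and, no longer called, Col5a1 by 0.08. The 4 h calls of Col4a1, Dcn, Vcan and Lox held in every alternative that tested them except, for Col4a1 and Dcn, an added 2-fold minimum, while those of Col4a2, Col5a1, Col5a2 and Bgn were lost when certain single arrays were left out. Without the wild-type 0 h array 4 genes of the set rose at 4 h.

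At earlier times the calls were few. Col6a1 rose at 1 h by 0.65 (SE 0.12, limma adjusted p = 0.0217), with values of 7.65 and then 8.15 in wild type, against 5.31 and then 6.11 in the labelled knockout, and the call was lost without any of the 4 arrays at 0 and 1 h (adjusted p up to 0.14). Col15a1 rose at 2 h by 0.67 (SE 0.20, limma adjusted p = 0.0365), lost without any of the 4 arrays at 0 and 2 h (adjusted p up to 0.16) and 1.09 with housekeeping centring. Pcolce fell at 2 h (difference -0.78, SE 0.21, adjusted p = 0.0278), a call lost under both other scalings. Thbs1 differed by 1.00 at 1 h (SE 0.27, limma adjusted p = 0.0683) and by -0.43 at 4 h (adjusted p = 0.245).

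**Figure D3:**
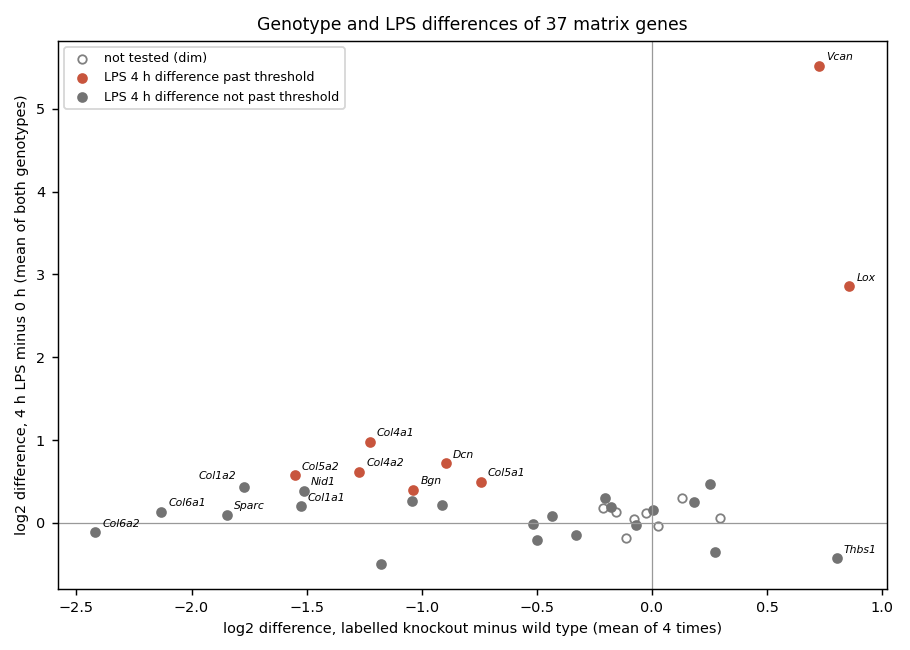
Genotype difference (horizontal axis, labelled knockout minus wild type, log2) against the difference of 4 h of LPS from 0 h (vertical axis, log2) for the 37 measured genes, red where the LPS difference passed the threshold and open where the gene was not tested. Vcan at 5.52 and Lox at 2.86 stand highest and lie right of 0, and the other 6 red points lie left of 0.

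Whether the genotype difference changed after LPS was tested in a fit with 2 residual degrees of freedom. Limma called 0 of the 29 genes, and 0% of all 12540, and 1 of the 29 (Loxl1) had an unadjusted p under 0.05. With trend and robust settings 0 of the 29 were called as well. Within the 16 lower genes, the 4 h array was the highest wild-type array in 11 of them and the 2 h array the lowest in 10. In the labelled knockout the 1 h array was the highest in 10, and the 0 h and 2 h arrays were each the lowest in 7. These counts were not set against all genes. The arrays also differ: 92.4% of tested genes were above background on the wild-type 4 h array and 79.9% on the wild-type 2 h array. The part of such array differences was not tested.

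Other genes of the same pathways were called in both directions. For these and the marker lists that follow, 4.75% of all 12540 tested genes were higher and 8.72% were lower. Whether any list departs from these shares was not tested. Of 16 tested enzymes of collagen synthesis outside the set, 2 were higher and 1 was lower, with the lysyl hydroxylase genes Plod3 (0.63, SE 0.11, limma adjusted p = 0.019) and Plod1 (-0.57, SE 0.14, adjusted p = 0.0477) in opposite directions. Both calls were lost when single arrays were left out. Of 22 tested matrix receptors, 1 was higher and 4 were lower, and of 15 other matrix genes, 2 were higher and 0 lower. Sdc1 (syndecan-1) differed by -1.02 (SE 0.08, limma adjusted p = 0.00114), the laminin receptor chain Itga6 by 0.79 (SE 0.08, adjusted p = 0.00269) and Ecm1 by 1.43 (SE 0.07, adjusted p = 0.000231).

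TGF-beta is a well-known inducer of collagen genes. Of 19 tested genes of TGF-beta and matrix control, 2 were higher and 5 were lower in the labelled knockout. The ligand gene Tgfb2 differed by 2.48 (SE 0.20, limma adjusted p = 0.00137) and Ltbp1, which tethers latent TGF-beta to the matrix, by 1.37 (SE 0.09, adjusted p = 0.000799). Ccn2 and Ccn1, matricellular genes often used as readouts of TGF-beta and YAP activity, differed by -1.20 (SE 0.10, limma adjusted p = 0.00151) and -1.41 (SE 0.19, adjusted p = 0.00781).

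Some markers of other cell types also differed between genotypes, and their part in these results was not tested. Of 14 fibroblast markers 3 were above background on all arrays, and of the 11 tested 4 were lower in the labelled knockout and 1 was higher. Their summed level (values returned from log2 and added) lay between 868 and 1626 in wild type and between 528 and 994 in the labelled knockout. The median difference of the list was -0.24. The PDGF receptor gene Pdgfra differed by -1.65 (SE 0.12, limma adjusted p = 0.00109), the cadherin gene Cdh11 by -0.90 (SE 0.09, adjusted p = 0.00238) and Gsn (gelsolin) by -0.74 (SE 0.07, adjusted p = 0.00258). The higher one, Thy1, which T cells also express, differed by 0.67 (SE 0.15, limma adjusted p = 0.0395). Its call was lost without any 1 of 6 arrays, where both arrays of a time give the same result.

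Of 9 smooth muscle and pericyte markers 5 were tested and 1 was lower, the smooth muscle actin gene Acta2 (-2.27, SE 0.16, limma adjusted p = 0.000925). The summed level of that list was 219 to 336 in wild type and 96.4 to 123 in the labelled knockout. Its median difference was -0.02, and Cnn1 and Actg2 were at background on all arrays. Of 14 mesothelial markers 5 were tested, 1 was higher (Cdh1, a call lost without any 1 of 4 arrays) and 1 lower. The lower one, the transcription factor gene Wt1, was at background on all 4 labelled-knockout arrays and at least 2.00-fold lower there. Its measured difference, to which the p belongs, was -1.20 (SE 0.11, limma adjusted p = 0.00238). From that list Msln, Lrrn4, Krt18, Krt19 and Muc16 were at background on all 8 arrays. The list's summed level was 121 to 128 in wild type and 112 to 160 in the labelled knockout. Among 9 endothelial markers Pecam1, Emcn and Tie1 were at background on all arrays, 1 of 2 tested was higher, and the sums were 84.7 to 103 and 103 to 129. The higher one, Flt1, lost its call without any 1 of 6 arrays.

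Leukocyte markers also differed between the genotypes. Of 10 markers of resident peritoneal macrophages 9 were higher in the labelled knockout, with summed levels of 3125 to 3832 in wild type and 13395 to 14375 in the labelled knockout. B and T lymphocyte markers summed to 129 to 132 and to 519 to 827, with 2 of 5 tested higher. These were the IgM heavy chain gene Ighm (3.68, SE 0.16, limma adjusted p = 0.000121) and the T cell receptor component gene Cd3e (0.89, SE 0.14, adjusted p = 0.0124), while the list's median difference was 0.10. The Cd3e call was lost without either of 2 arrays (limma adjusted p up to 0.0587). Neutrophil, eosinophil and mast cell markers summed to 119 to 180 and to 126 to 140, with 2 of 6 tested lower, both mast cell protease genes (Cma1 and Cpa3). The Cpa3 call was lost without either of 2 arrays (limma adjusted p up to 0.075). General macrophage markers summed to 33623 to 37628 and to 33740 to 39249, with 3 of 10 higher and 1 lower. The 3' minus 5' signal of Actb, a sign of RNA integrity, was 2.16 to 2.64 in wild type and 2.30 to 3.11 in the labelled knockout, the labelled knockout being higher at each time. That of Gapdh was 2.98 to 3.16 in wild type and 2.90 to 3.31 in the labelled knockout, which was higher at 0 h and lower at 1, 2 and 4 h, and the part of RNA integrity was not tested.

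**Figure D4:**
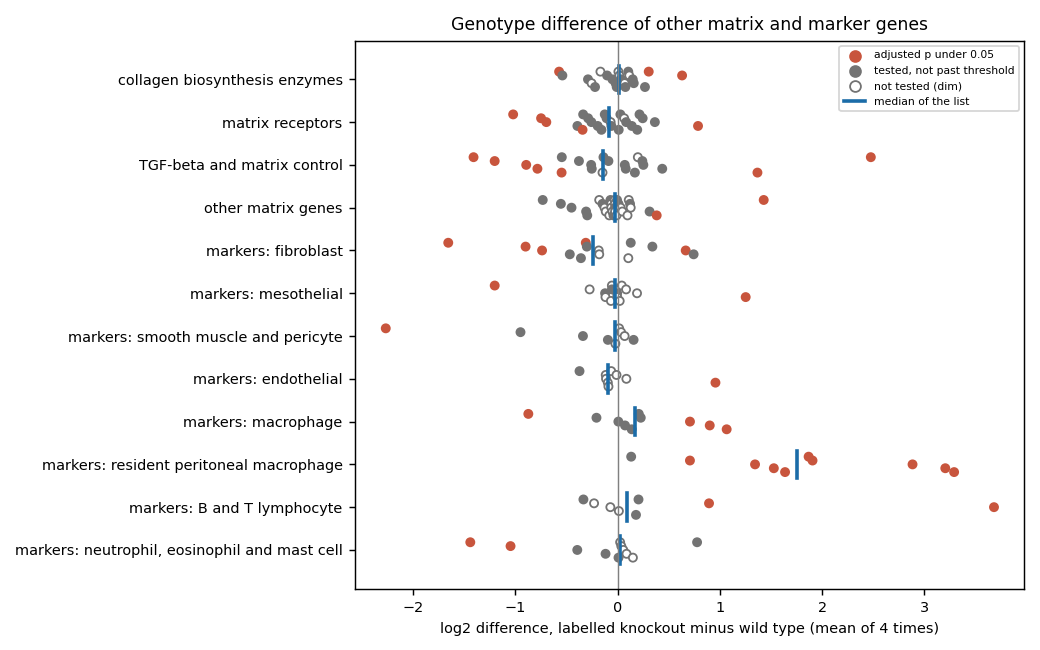
Genotype difference (horizontal axis, labelled knockout minus wild type, log2) of the measured genes of each pathway and marker list, red where the adjusted p was under 0.05 and open where the gene was not tested, with the list's median as a blue bar. The resident peritoneal macrophage markers have a median of 1.75 and the fibroblast markers one of -0.24.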

How the data were processed

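The authors deposited log2 values from Affymetrix arrays for 45101 probe sets on 8 arrays, processed with RMA (background correction, quantile normalization, probe summary) per the submitters' processing notes, with no version given. Quantile normalization equalises the arrays' distributions, so a shift of most genes in one direction would not be seen. The platform annotation gave names: 34958 had 1 symbol, 932 several and 9211 were unnamed. Of the single-symbol ones, 34754 matched the RefSeq gene table of GRCm38.p6, which changed 0 symbols. The probe set of highest mean stood for each gene, and 12540 of 18193 genes passed the filter.

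An additive fit of genotype and time (limma 3.58.1, R 4.3.3, lmFit and eBayes) left 3 residual degrees of freedom. Adjusted p-values are Benjamini-Hochberg over all 12540 genes and errors are moderated standard errors (SE). The fits were tested on simulated data. The number of arrays limits the precision. No batch is given in the labels. The replicate number carries no pairing, since each group is 1 array.

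The genes and lists were chosen with earlier results of these data known. Every gene of the set was described; of each other list, the counts and up to 4 genes of smallest genotype p could be named. Alternatives were other scalings, filters and probe set rules, trend and robust settings, a 2-fold minimum, no time block and leaving out each array.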

Additional observations from a re-analysis of the deposited data

Results flagged for a closer look

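In 3 genes all wild-type arrays after LPS moved one way from 0 h and all labelled-knockout arrays moved the other way. How many of all tested genes do so was not counted. Within a genotype the moves are all taken from the same 0 h array, so they are not independent. Some were small, such as 0.02 for Lamc1 in wild type at 1 h. The genotype difference after LPS minus that at 0 h was -0.68 for Lamc1, whose wild-type values stood above 6.09 after LPS and whose labelled-knockout values stood below 6.87. It was 0.60 for Col6a3 and 0.57 for Loxl1, where wild type was lower after LPS and the labelled knockout higher. None of the 3 passed limma's test of a changed genotype difference (adjusted p = 1 for each), and Loxl1 was not above background on any labelled-knockout array.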

How the results depend on the processing

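All 19 genotype calls kept their direction in every alternative that tested them. Leaving aside a 2-fold minimum, which left 12 (0 higher), and the fit without the time block, which called 10 (0 higher), 15 of the 19 stayed past the threshold wherever they were tested. Leaving out single arrays gave 15 to 18, with the same genotype result for both arrays of a time. At 1 h of LPS the 1 call became 4 with cyclic loess, 6 with housekeeping centring, 4 with a filter at the 75th percentile, 2 with the mean of probe sets, 2 without the less specific probe sets and 0 with a 2-fold minimum, and 0 to 2 without single arrays. At 2 h the 4 calls became 16 with housekeeping centring, 2 with the 75th percentile filter and 2 with a 2-fold minimum, and 2 to 4 without single arrays (2 without the wild-type 0 h or the labelled-knockout 2 h array). At 4 h the 8 calls became 24 with housekeeping centring and 2 with a 2-fold minimum, and 4 to 9 without single arrays. Not all of these were rises: without the wild-type 4 h array 4 were higher and 2 lower. Without either 1 h array 8 were higher and 1 was lower. The cause of these moves was not tested. The sign of the genotype difference turned in uncalled genes only: Col8a1 (0.078 with housekeeping centring) and Lum (-0.016 with cyclic loess, -0.11 to 0.12 without single arrays). The test of a changed genotype difference called 0 in each alternative run and could not be estimated without a 0 h array. Arrays of both genotypes were matched by time in the fit, and no further pairing was possible because each group is 1 array. Genes near background, among them Lama4, Lum and Loxl1, do not have firm levels, and their measured differences carry that limit. With dim labelled-knockout arrays raised to their background, the Loxl1 difference was -0.15.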
